A study of Danio rerio with 6 samples.

Results

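Ephrins and Eph receptors were examined in the RNA-seq libraries of 6 dpf *panx1a*-/- and wild-type zebrafish larvae. The genes were chosen by symbol, as every *efna*, *efnb*, *epha* or *ephb* symbol followed by a number, which gave 17 of the 15336 genes listed in the count files. These are 5 ephrin-A ligands, 4 ephrin-B ligands, 4 EphA receptors and 4 EphB receptors. RefSeq holds 15 further ephrin and Eph symbols that the count files do not list, so values by class cover only part of each class. The controls were untreated wild-type larvae of the Tupfel long fin (TL) strain. The *panx1a*-/- larvae were untreated, of the same strain, and carry a TALEN-made frameshift deletion in *panx1a* that was bred from 1 founder fish. Each genotype has 3 libraries, numbered 1 to 3, made from total RNA of whole larvae, and the sources used here do not give the number of larvae per library. Nothing says that the libraries of a genotype came from separate clutches, so the p-values measure the spread between these libraries only.

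Ephrins are cell surface ligands and Ephs are the receptor tyrosine kinases that bind them, so signals pass mainly between cells in contact. Ephrin-A ligands are held in the membrane by a lipid anchor and bind mainly EphA receptors, whereas ephrin-B ligands span the membrane and bind mainly EphB receptors. EphA4 is an exception and binds ligands of both classes. Signals run forward into the cell with the receptor and in reverse into the cell with the ligand, and most often cells or axons are repelled. In fish the family is known for the map from retina to optic tectum, for keeping hindbrain segments apart and for the separation of arteries from veins.

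Between 17349457 and 21472044 reads were counted on genes per library in the TL controls, and between 13054759 and 17776115 in *panx1a*-/- larvae. As a check of the labels, *panx1a* had 110 to 147 counts in the TL controls and 13 to 22 counts in *panx1a*-/- larvae, with a log2 fold change of −2.72 (adjusted p = 0.00793, quasi-likelihood test of edgeR, adjusted after Benjamini and Hochberg). The share of uniquely aligned reads that matched no listed gene is called the outside-gene read share here. It was between 30.2% and 42.9% in the TL controls and between 48.4% and 59.4% in *panx1a*-/- larvae. This share thus also separated the genotypes. The annotation and strand setting of the counting are not given, so such reads need not lie outside genes. For counting error only, the 95% Wilson bounds of each share lie within 0.0176 percentage points of it. Markers of several cell types differed too. Of the neuronal markers 7 of 14 were upregulated, and their summed level lay between 1233 and 2723 CPM (TMM-normalised counts on a common library size) in the TL controls and between 3001 and 5117 CPM in *panx1a*-/- larvae. Of the photoreceptor markers 7 of 10 tested were upregulated, and only the cone marker *arr3a* had no count in any library. Among skin markers 6 of 9 were downregulated, with a summed level from 16286 to 40786 CPM in the controls and from 2127 to 6759 CPM in *panx1a*-/- larvae. Exocrine pancreas markers were downregulated in 9 of 10 cases and skeletal muscle markers in 4 of 11. Over all tested genes 9.88% were upregulated and 11.8% downregulated. Few calls fell on markers of enterocytes (0 of 8), hepatocytes (1 of 8, down) and neural progenitors with radial glia (1 up and 1 down of 12). Their values still leaned to 1 side. The log2 fold change was positive in 0 of 8 enterocyte, 0 of 8 hepatocyte and 10 of 12 progenitor markers. The medians were −0.84, −1.50 and 0.32. The part of these cell types in the ephrin and Eph results was not tested. In whole larvae fewer cells of a type and less RNA per cell cannot be told apart.

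Among the members called, the ephrin-A1 ligands rose and 3 others fell. In *panx1a*-/- larvae *efna1a* was 1.62-fold and *efna1b* 2.10-fold higher, while *efna3b*, *efnb1* and the receptor *epha4b* were 3.07-fold, 2.10-fold and 2.20-fold lower. These 5 genes were called at an adjusted p-value below 0.05 among the 16 members that passed the filter on low counts. The share is 31.2%, against 21.6% of the 12797 genes tested. Upregulated members made up 2 of 16, against 9.88% of all tested genes, and downregulated members 3 of 16, against 11.8%. With only 16 members, these shares are not far from the background, and the difference was not tested. The median log2 fold change was −0.26 over the 16 members and −0.06 over all tested genes. By class the median log2 fold change was 0.72 for ephrin-A ligands, −0.91 for ephrin-B ligands, −0.38 for EphA receptors and −0.09 for EphB receptors, each over 4 genes. Ephrin-B was the only class with 1 sign, since ephrin-A values ran from −1.62 to 1.07 and EphA and EphB receptors each had 2 positive and 2 negative values, and the classes were not tested against each other. By kind, 4 of 8 ligands and 1 of 8 receptors were called, a difference that was not tested.

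**Figure D1:**
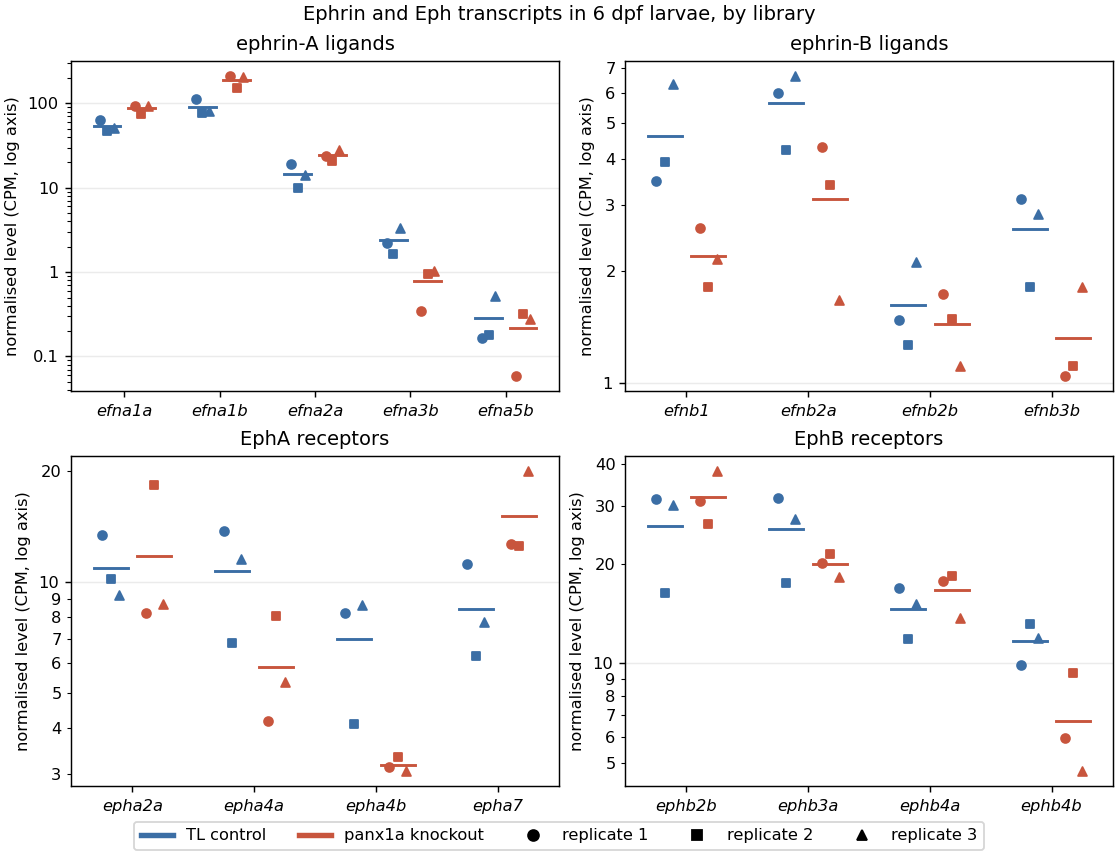
Normalised level (CPM, log axis) of the 17 ephrin and Eph genes in each of the 3 TL control libraries (blue) and 3 panx1a-/- libraries (red), with symbols for the replicate number and bars for the mean of a genotype. For efna1a and efna1b every panx1a-/- library lay above every control, and for efna3b, efnb1 and epha4b every one lay below.

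Ephrin-A1 is a ligand of EphA receptors, known in mammals as a partner of EphA2. *efna1b* was at 113, 76.2 and 82.2 CPM in TL replicates 1, 2 and 3, and at 211, 151 and 207 CPM in *panx1a*-/- replicates 1, 2 and 3. The lowest *panx1a*-/- library was thus above the highest control. The log2 fold change was 1.07 (standard error 0.23, 95% interval 0.54 to 1.599, adjusted p = 0.0308), from a mean of 90.4 ± 19.7 to 189.7 ± 33.2 CPM (SD, n = 3 each). *efna1a* was at 64.1, 46.9 and 50.6 CPM in the controls and at 94.2, 74.0 and 94.2 CPM in *panx1a*-/- larvae, again without overlap. Its log2 fold change was 0.70 (standard error 0.19, 95% interval 0.26 to 1.13, adjusted p = 0.0405), from 53.9 ± 9.06 to 87.5 ± 11.7 CPM (SD, n = 3 each). Both copies therefore moved in the same direction, and *panx1a*-/- replicate 2 was the library of its genotype nearest to the controls for both.

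The other ephrin-A genes differed among themselves. *efna3b* encodes an ephrin-A3, a neural ligand in mammals, and had few reads, with 41, 27 and 64 counts in the controls and 6, 18 and 15 in *panx1a*-/- larvae. In normalised values this was 2.24, 1.63 and 3.30 CPM against 0.348, 0.957 and 1.04 CPM, and the genotypes did not overlap. The log2 fold change was −1.62 with a wide error (standard error 0.45, 95% interval −2.66 to −0.57, adjusted p = 0.0435). *efna3b* was downregulated although it is the next protein-coding gene to *efna1b*, which was upregulated, in the gene order of the RefSeq annotation of GRCz12tu. *efna2a* belongs to the ephrins that guide retinal axons in the fish tectum. It was at 19.4, 9.85 and 13.99 CPM in the controls and 23.7, 20.7 and 28.1 CPM in *panx1a*-/- larvae. Every *panx1a*-/- value lay above the controls, but the log2 fold change of 0.74 (95% interval 0.16 to 1.33) did not pass the threshold (adjusted p = 0.0659). *efna5b*, another ephrin of the retinotectal system, had 3, 3 and 10 counts in the controls and 1, 6 and 4 in *panx1a*-/- larvae, near the floor of 3 counts set for this depth, and was the only member that did not pass the filter. In the fit without the filter, where all 17 members were tested, *efna5b* was not called. With so few counts a difference in *efna5b* could be missed.

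All 4 ephrin-B genes had a negative log2 fold change and 1 was called. *efnb1*, whose human counterpart is mutated in craniofrontonasal syndrome, was at 3.50, 3.93 and 6.35 CPM in the controls and at 2.61, 1.81 and 2.16 CPM in *panx1a*-/- larvae. The groups did not overlap, although TL replicate 3 stood well above its fellow controls. *efnb1* was downregulated with a log2 fold change of −1.07 (standard error 0.31, 95% interval −1.78 to −0.36, adjusted p = 0.0459). *efnb3b*, a midline ephrin of the nervous system in mice, was at 3.11, 1.81 and 2.84 CPM in the controls and at 1.04, 1.12 and 1.81 CPM in *panx1a*-/- larvae. TL replicate 2 and *panx1a*-/- replicate 3 nearly met, and the log2 fold change of −0.98 was not called (adjusted p = 0.0695). *efnb2a*, the ephrin that marks arteries, was at 6.01, 4.23 and 6.66 CPM in the controls and 4.29, 3.40 and 1.67 CPM in *panx1a*-/- larvae. Here the genotypes overlapped by a small margin, at a log2 fold change of −0.84 (95% interval −1.66 to −0.025, adjusted p = 0.107). Its paralog *efnb2b* was at 1.47, 1.27 and 2.12 CPM against 1.74, 1.49 and 1.11 CPM. The interval for *efnb2b* ran from −0.92 to 0.59 around a log2 fold change of −0.16 and covers a change in either direction (adjusted p = 0.724).

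**Figure D2:**
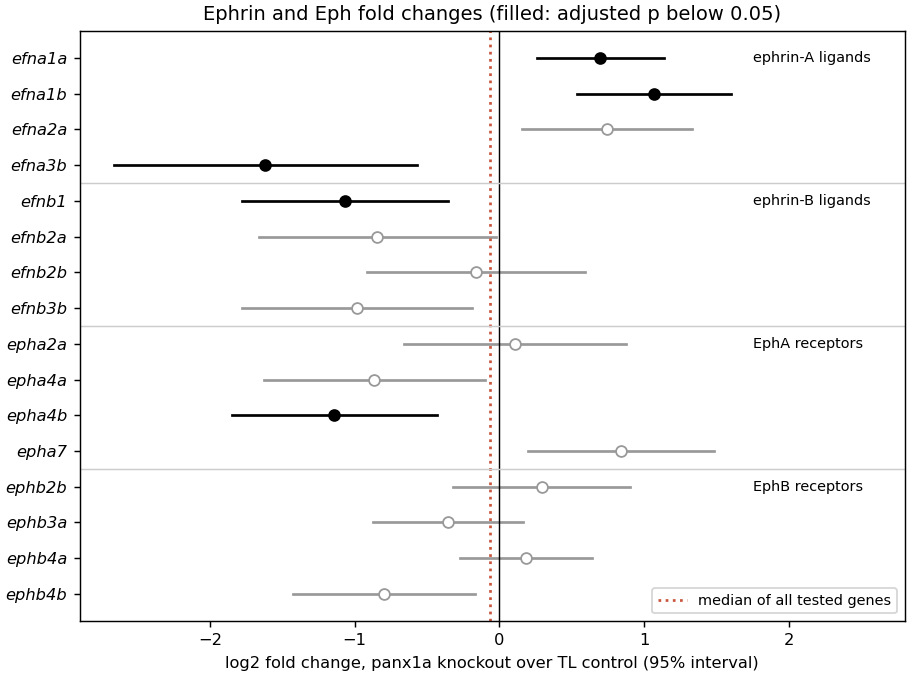
Log2 fold change of panx1a-/- over TL control larvae for the 16 tested ephrin and Eph genes, with 95% intervals from edgeR's quasi-likelihood test and filled points for an adjusted p-value below 0.05. The dotted line is the median of all tested genes (−0.06). The ephrin-A1 genes lie to the right, and efna3b, efnb1 and epha4b to the left.

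Among the EphA receptors the *epha4* pair lay lower and *epha7* higher. *epha4b*, a copy of the receptor that sharpens hindbrain segment borders, was at 8.25, 4.11 and 8.67 CPM in the controls and at 3.13, 3.35 and 3.06 CPM in *panx1a*-/- larvae. The *panx1a*-/- libraries were close together and all below TL replicate 2, which was itself far below its fellow controls. *epha4b* was downregulated with a log2 fold change of −1.14 (standard error 0.31, 95% interval −1.85 to −0.43, adjusted p = 0.0404). *epha4a*, its paralog, was at 13.8, 6.83 and 11.5 CPM against 4.17, 8.08 and 5.35 CPM. TL replicate 2 and *panx1a*-/- replicate 2 overlapped, and the log2 fold change of −0.86 (95% interval −1.63 to −0.10) was not called (adjusted p = 0.0854). *epha7*, a receptor with graded expression in the visual midbrain of mice and chicks, was at 11.1, 6.29 and 7.80 CPM in the controls and at 12.7, 12.5 and 20.02 CPM in *panx1a*-/- larvae. Its values did not overlap, but *panx1a*-/- replicate 3 held much of the difference, and the log2 fold change of 0.84 (95% interval 0.20 to 1.48) missed the threshold (adjusted p = 0.0614). *epha2a*, a receptor of epithelia and lens in mammals, ranged from 9.19 to 13.4 CPM in the controls and from 8.23 to 18.3 CPM in *panx1a*-/- larvae. The highest *epha2a* value was *panx1a*-/- replicate 2, the other 2 *panx1a*-/- libraries lay below every control, and the interval of −0.66 to 0.87 spans both directions.

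None of the 4 EphB receptors was called, and 1 of them, *ephb4b*, had an unadjusted p-value below 0.05. *ephb4b* was at 9.89, 13.1 and 11.98 CPM in the controls and at 5.97, 9.35 and 4.73 CPM in *panx1a*-/- larvae. The genotypes did not overlap, with *panx1a*-/- replicate 2 just under TL replicate 1, and the log2 fold change was −0.80 (95% interval −1.43 to −0.17, adjusted p = 0.0662). Its paralog *ephb4a*, the receptor of veins that pairs with *efnb2a*, was at 16.9, 11.8 and 15.2 CPM against 17.8, 18.4 and 13.7 CPM. These groups overlapped, and the interval for the log2 fold change of *ephb4a*, −0.27 to 0.64, excludes a 2-fold change in either direction. *ephb2b*, a receptor of axon pathways and of the gut epithelium in mice, was at 31.5, 16.4 and 30.2 CPM in the controls and at 30.9, 26.4 and 38.2 CPM in *panx1a*-/- larvae. TL replicate 2 was the low value, and the log2 fold change of 0.29 (95% interval −0.32 to 0.90) was not called. *ephb3a*, which acts with EphB2 in mice, ranged from 17.5 to 31.7 CPM in the controls and from 18.2 to 21.5 CPM in *panx1a*-/- larvae, so that all *panx1a*-/- values fell inside the control range (95% interval of the log2 fold change −0.88 to 0.17).

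Of the 16 tested members 9 had no overlap between the genotypes, against 47.5% of all tested genes. In 4 members every *panx1a*-/- library lay above the controls, against 23.4% of all tested genes, and in 5 every one lay below, against 24.1%. The members' shares are thus near the background. An unadjusted p-value below 0.05 was reached by 11 of the 16 members and by 43.7% of all tested genes. TL replicate 2 was the lowest control for 13 of the 16 members, whereas over all tested genes it was the lowest in 34.0% of cases. Its TMM factor, the scaling for RNA composition, was 0.77, against 0.96 and 1.06 in TL replicates 3 and 1. Levels are divided by this factor, so it raised the values of TL replicate 2 relative to scaling by library size only. Without TL replicate 2, *epha4b* was the only member called (log2 fold change −1.42, adjusted p = 0.0464), and over all genes 38 were then upregulated and 104 downregulated, of 12919 tested.

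Summed over its members, the ephrin-A class was at 199, 135 and 151 CPM in the controls and at 329, 247 and 330.4 CPM in *panx1a*-/- larvae, a ratio of means of 1.87. Most of this came from *efna1a* and *efna1b*. Without them the sum went from 17.1 ± 5.10 to 25.2 ± 3.82 CPM (SD, n = 3 each), most of it *efna2a*. The ephrin-B class was at 14.1, 11.2 and 17.97 CPM in the controls and at 9.68, 7.81 and 6.74 CPM in *panx1a*-/- larvae, a ratio of 0.56. The receptor sums had a ratio of 0.97 for EphA and 0.97 for EphB receptors, and both classes hold genes of either sign. These sums are descriptions, with no test, and cover only the genes listed in the count files. Of all reads counted on the 17 genes, *efna1a* and *efna1b* took 50.7%, 53.0% and 45.8% in the controls and 69.0%, 60.4% and 67.0% in *panx1a*-/- larvae (95% Wilson bounds within 1.58 percentage points, for counting error only). Shares of reads depend on transcript length as well as on transcript number, and levels were not compared between genes here.

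Within a library, the ratio of 2 paralogs does not depend on the scaling between libraries. This was measured for the 4 pairs of a and b copies among the members with at least 10 counts in every library. The log2 ratio of *efna1a* to *efna1b* was −0.82, −0.70 and −0.70 in the controls and −1.16, −1.03 and −1.13 in *panx1a*-/- larvae. The larger rise was thus in *efna1b*, by 0.37 on the log2 scale, with no overlap and an SD of 0.07 in each genotype. The ratio of *efnb2a* to *efnb2b* was 2.03, 1.74 and 1.65 against 1.30, 1.19 and 0.58, a difference of −0.78 toward the b copy. For the *ephb4* pair the ratio of a to b was 0.77, −0.15 and 0.34 against 1.58, 0.98 and 1.53, a difference of 1.04 toward the a copy. Neither copy was called, and the log2 fold change was 0.18 for *ephb4a* and −0.80 for *ephb4b*. In each of these 3 pairs a two-sided exact permutation test over the libraries gave p = 0.1, the smallest that 3 libraries against 3 allow. The *epha4* ratio, 0.74, 0.73 and 0.41 against 0.42, 1.27 and 0.81, overlapped (exact permutation test, p = 0.4). Over all 860 a and b pairs in the files with as many counts, 46.6% did not overlap, and the median size of the difference was 0.55.

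**Figure D3:**
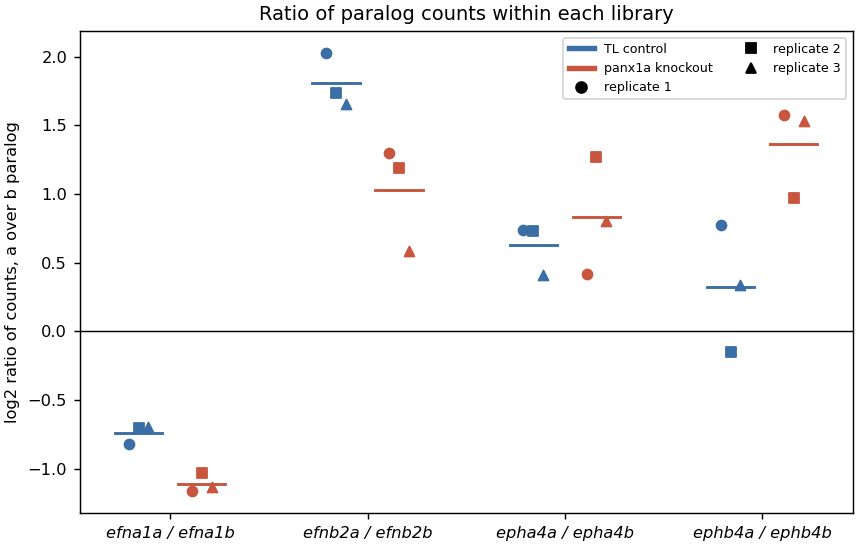
Log2 ratio of the counts of the a paralog to the b paralog in each library, for the 4 pairs of ephrin and Eph genes, with TL controls in blue, panx1a-/- larvae in red and bars for the mean. The efna1, efnb2 and ephb4 ratios do not overlap between the genotypes, whereas the epha4 ratios do.

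The calls depended on single libraries. Without TL replicate 3, *panx1a*-/- replicate 1 or *panx1a*-/- replicate 3, no member was called, while 5, 8 and 6 members had an unadjusted p-value below 0.05 in edgeR's quasi-likelihood test. Over all genes the calls then fell to 3, 19 and 4, so this loss was not particular to the family. At the unadjusted threshold, 1555 genes were up and 2090 down of 12879 tested without TL replicate 3. The counts were 1790 and 2325 of 12980 without *panx1a*-/- replicate 1, and 1683 and 2114 of 12978 without *panx1a*-/- replicate 3. Without TL replicate 1, 6 members were called, with *efna2a* and *epha7* added and *epha4b* lost, beside 36.4% of all genes. Without *panx1a*-/- replicate 2, 7 were called, with *epha4a*, *epha7* and *ephb4b* added and *efnb1* lost, beside 28.2% of all genes. Across these 6 fits the log2 fold change stayed between 0.60 and 0.85 for *efna1a*, 0.95 and 1.26 for *efna1b*, −1.85 and −1.26 for *efna3b*, −1.23 and −0.76 for *efnb1*, and −1.42 and −0.96 for *epha4b*. The adjusted p-values of *efna1b* ranged from 0.00865 to 0.127 and those of *efnb1* from 0.0244 to 0.158.

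When the outside-gene read share entered the fit as a covariate, 0 members were called and 2, *efnb3b* and *epha4b*, had an unadjusted p-value below 0.05. In that fit 1 gene was called over the whole transcriptome. The log2 fold change of *efna1a* was then 0.16 (standard error 0.27), that of *efna1b* 0.38 (0.32), that of *efna3b* −1.70 (0.92), that of *efnb1* −0.60 (0.64) and that of *epha4b* −1.45 (0.59). The errors were larger than without the covariate for all 5 genes. That share did not overlap between the genotypes, so genotype and share cannot be told apart by this fit. Within the controls the share was uneven, at 42.9% in TL replicate 1 against 30.2% and 30.7% in TL replicates 2 and 3.

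**Figure D4:**
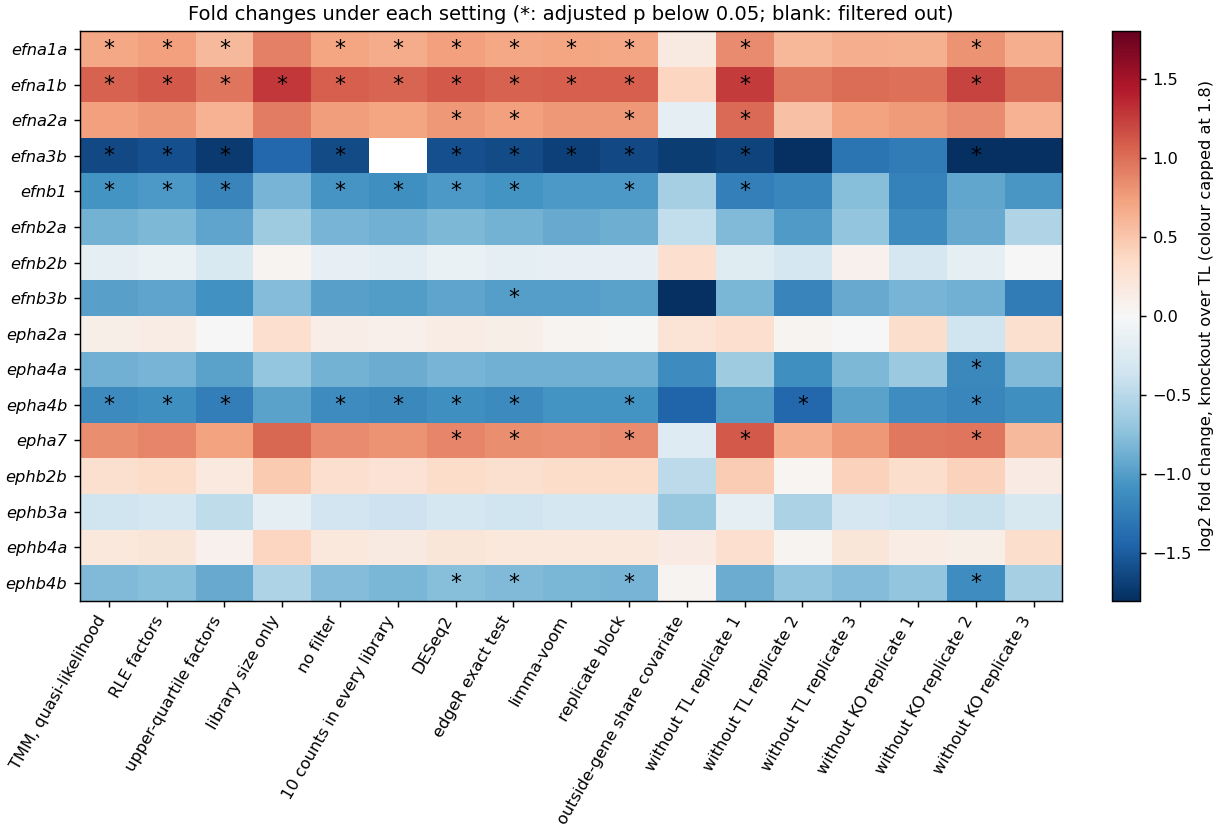
Log2 fold change (colour, capped at 1.8) of the 16 tested ephrin and Eph genes under each setting, with a star for an adjusted p-value below 0.05. The settings are normalisation, filter, test, replicate block, outside-gene read share as covariate and left-out library. Stars gather in the rows of efna1a, efna1b, efna3b, efnb1 and epha4b. They are absent with the covariate and without TL replicate 3, panx1a-/- replicate 1 or panx1a-/- replicate 3.

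Genes that relay, limit or share the territory of Eph signals were taken from 6 lists by symbol, leaving out the 17 members. The count files list 35 of 52 symbols for receptor relay, 15 of 20 for reverse signaling and 14 of 16 for shedding and turnover. These lists are thus covered only in part, and the remaining lists in full. Among 35 tested relay genes of Eph receptors, 3 were upregulated and 6 downregulated, with a median log2 fold change of 0.11. *chn1*, the Rac-inactivating protein alpha-chimaerin that EphA4 uses in mouse motor axons, rose from 81.4 ± 18.3 to 169.0 ± 36.5 CPM (SD, n = 3 each; log2 fold change 1.05, adjusted p = 0.0331). *pak1*, a kinase that Rac and Cdc42 activate, rose as well (log2 fold change 0.93, adjusted p = 0.0279). *inppl1a* encodes the lipid phosphatase SHIP2, which binds EphA2 in human cells, and fell from 22.5 ± 5.48 to 5.14 ± 1.67 CPM (SD, n = 3 each; log2 fold change −2.12, adjusted p = 0.0221). The GTPase gene *rac1b* (−1.07) and the Src family kinase gene *lyn* (−1.10) were downregulated too. *rac1a*, at 33.6 against 36.3 CPM, was not called (0.11). Of the other Src family genes in the list, *fynb* was downregulated (−1.07). *fyna* (0.73), *yes1* (0.34) and *src* (−0.64) were not called. The direction was mixed in this list, and the shares called in either direction, 8.57% up and 17.1% down, stand beside 9.88% and 11.8% over all genes.

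Among 14 tested partners of ephrin reverse signaling, 2 were upregulated and 2 downregulated. These shares are 14.3% in each direction, against 9.88% up and 11.8% down over all tested genes. *grip2a*, an adaptor of the PDZ class that binds ephrin-B tails in mammals, rose from 9.35 ± 2.59 to 23.1 ± 4.58 CPM (SD, n = 3 each; log2 fold change 1.30, adjusted p = 0.0279). *sdcbp*, which encodes syntenin, another PDZ protein that binds ephrin-B, fell from 8.05 ± 1.89 to 3.62 ± 0.235 CPM (log2 fold change −1.16, adjusted p = 0.0298). *sdcbp2*, in the same list, was at 112.5 ± 15.7 against 98.4 ± 3.83 CPM and was not called (log2 fold change −0.19). The receptor gene *ret*, a co-receptor of ephrin-A reverse signaling in mouse motor axons, was upregulated (0.79), and *dvl2*, which encodes a Dishevelled adaptor, was downregulated (−0.82). Of 13 tested genes for shedding, dephosphorylation and turnover 1 was called, *psen2*, a catalytic subunit of gamma-secretase (log2 fold change −0.62, adjusted p = 0.0431). The share downregulated was 7.69%, against 11.8% of all tested genes.

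Of 20 tested genes that pattern the eye and the tectum, 3 were upregulated and 1 downregulated, with a median log2 fold change of 0.43. These shares are 15% up and 5% down, against 9.88% and 11.8% over all tested genes. *tbx2a* (log2 fold change 1.00) and *tbx2b* (0.70), T-box factors of the dorsal retina, were upregulated. So was *en2b* (1.01), an Engrailed factor of the midbrain that controls ephrin-A levels in the chick tectum. The other Engrailed genes in the list, *en1b* (0.79), *en2a* (0.43) and *en1a* (0.17), were not called. *aldh1a2*, a retinoic acid synthesis gene, was downregulated (−0.52). Of the 11 hindbrain segment genes 1 was called, a share of 9.09% up, against 9.88% of all tested genes. *hoxb3a*, a Hox gene of the caudal hindbrain, rose from a mean of 31.2 ± 5.16 CPM to one of 76.6 ± 27.9 CPM (SD, n = 3 each; log2 fold change 1.29, adjusted p = 0.0298). Retinal ganglion cell markers were upregulated in 2 of 12 cases, at a summed level of 474 to 694 CPM in the controls and 674 to 942 CPM in *panx1a*-/- larvae. The 2 ranges overlapped, and their part in the retinotectal genes was not tested.

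Among 21 tested artery and vein genes, 2 were upregulated and 5 downregulated, with a median of −0.12. These shares are 9.52% up and 23.8% down, against 9.88% and 11.8% over all tested genes. *notch3* (log2 fold change −1.27) and *notch1b* (−1.33), receptors of the Notch pathway that favours arterial fate, and *hey1* (−0.78), a Notch target, were downregulated. The Notch ligand gene *dll4* (0.71) and the neuropilin gene *nrp2b* (0.72) were upregulated. The neuropilin genes *nrp1b* (−0.89), *nrp2a* (0.15) and *nrp1a* (−0.09) were not called. Endothelial markers summed to between 51.9 and 54.9 CPM in the controls and between 41.0 and 55.4 CPM in *panx1a*-/- larvae, with 2 of 11 downregulated and 0 upregulated by edgeR's quasi-likelihood test.

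**Figure D5:**
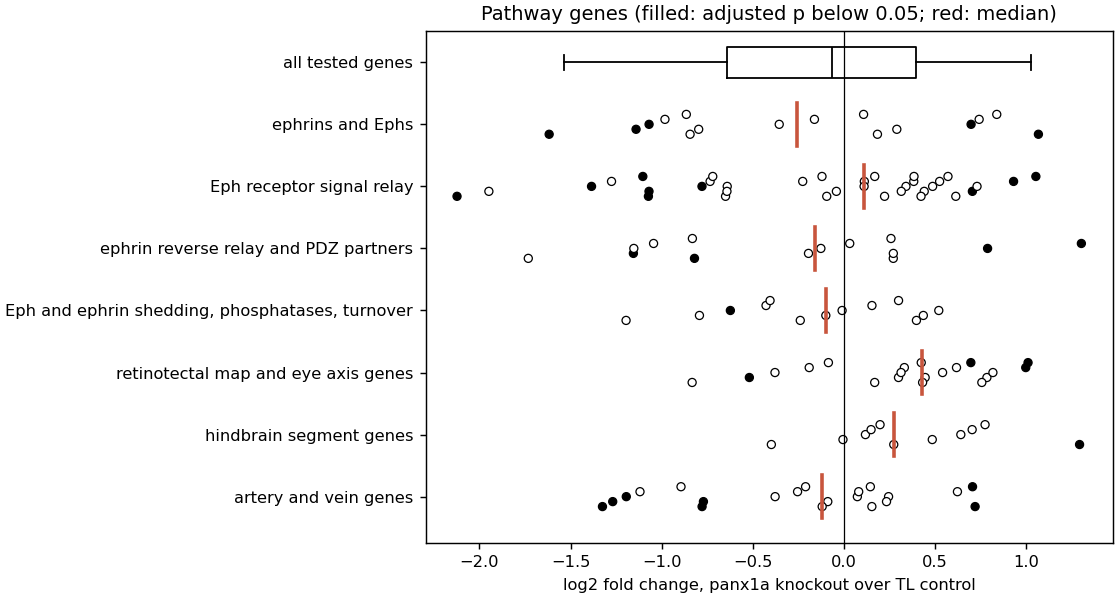
Log2 fold change of panx1a-/- over TL control larvae for the 16 tested ephrin and Eph genes and for the genes of 6 lists, one point per gene, filled where the adjusted p-value was below 0.05 and with the median as a red line. The box shows the quartiles of all tested genes, with whiskers from the 5th to the 95th percentile, and the red medians lie within the whiskers, from −0.26 for the ephrins and Ephs to 0.43 for the retinotectal genes.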

How the data were processed

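Total RNA of whole 6 dpf larvae was sequenced from 3 TL and 3 *panx1a*-/- libraries, prepared with a directional kit. Raw gene-level read counts, not normalised, were deposited by the authors, and their processing notes name danRer11, Trim Galore 0.4.4, TopHat2 2.0.11 and HTSeq 0.6.1p2. The annotation and the strand setting are not given in the sources used here. The 5 rows that name no gene were left out of tests. Unmatched reads were 30.2% to 59.4% and ambiguous reads 0.102% to 0.177% of uniquely aligned reads. Pairs of libraries of a genotype differed beyond sampling noise (chi-square per degree of freedom at least 46.7).

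In R 4.3.3, genes were filtered by edgeR 4.0.16 (filterByExpr, default settings), TMM-normalised and fitted on all genes with the robust quasi-likelihood test, with genotype as the only factor. Calls required a Benjamini-Hochberg adjusted p-value below 0.05. Standard errors are the log2 fold change divided by the square root of F, and 95% intervals use the degrees of freedom of the fit. The floor of 3 counts was 0.155 to 0.209 CPM per library. Alternatives used DESeq2 1.42.0, edgeR's exact test, limma-voom (limma 3.58.1), other scalings and filters, a replicate block, a covariate and left-out libraries. The quasi-likelihood, exact, limma-voom and DESeq2 fits were also run on simulated counts with set fold changes. That simulation had no deviant library, so it does not bear on how the calls depend on single libraries.

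The members and lists were chosen with earlier results of these data known. Every member was given values, and list genes were named where called, at most 5 per list with the lowest p. Some relatives of these genes in the same list were named beside them. All 17 members matched RefSeq symbols (GRCz12tu), used only for names and gene order. The other 15 ephrin and Eph symbols of RefSeq are not listed in the count files, so they could not be examined.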

Additional observations from a re-analysis of the deposited data

Results flagged for a closer look

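Reads that matched no listed gene enter no comparison of genes. They had a share of 48.4% in the lowest *panx1a*-/- library and of 42.9% in the highest TL control. They were singled out because they lay above the controls. Their part in the ephrin and Eph results was not tested beyond the covariate fit described above.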

How the results depend on the processing

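RLE factors and the unfiltered table called 2 upregulated and 3 downregulated members, the same genes as TMM with the default filter. Upper-quartile factors did so too. Of all genes, 22.0% were called with RLE factors, 19.2% without the filter and 21.9% with upper-quartile factors. Relative to TMM, the median log2 fold change of all genes moved by −0.11 with upper-quartile factors and by 0.23 with library size only. With library size only, edgeR's quasi-likelihood test called 1 member up (*efna1b*, log2 fold change 1.27, adjusted p = 0.0385) and 0 down. In the same test 4 members up and 3 down had an unadjusted p-value below 0.05. Of all genes, 1026 were then upregulated, against 1264 with TMM, and 607 downregulated, against 1506. *efnb2b* turned to 0.052 there, but stayed at −0.11 relative to the median. A minimum of 10 counts in every library removed *efna3b* from the test and left the other calls, beside 20.6% of all genes. DESeq2 called 4 members up and 4 down, with 1961 of all genes up and 2057 down (31.4%). The exact test of edgeR called 4 up and 5 down, beside 30.8% of all genes, and limma-voom 2 up and 1 down, beside 22.3%, with *efnb1* (adjusted p = 0.05004) and *epha4b* (0.0522) at the threshold.

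Deviations of same-numbered libraries correlated by r = 0.08 to 0.30 across genes (mean 0.17). For libraries of different numbers r ran from −0.21 to 0.14 (mean −0.08). Not every library correlated best with its own number, so the numbers were not taken as pairs. With the replicate block, 4 members were called up and 4 down, adding *efna2a*, *epha7* and *ephb4b*, beside 30.3% of all genes. With the share of outside-gene reads as a covariate, 0 members were called up and 0 down, and 0 and 1 of all genes. In edgeR's quasi-likelihood test 222 genes up and 359 down then had an unadjusted p-value below 0.05. The log2 fold changes in that fit were −0.16 for *efna2a*, 0.30 for *efnb2b*, −0.24 for *epha7*, −0.47 for *ephb2b* and 0.052 for *ephb4b*, each of the opposite sign. The cause was not tested. With a library left out, 0 to 4 members were called up and 0 to 4 down, and 1 to 2392 of all genes up and 1 to 2316 down. The log2 fold change then ran from −0.31 to 0.081 for *efnb2b* and from −0.36 to 0.31 for *epha2a*, with 0.081 and −0.0030 without TL replicate 3 and, for *epha2a*, −0.36 without *panx1a*-/- replicate 2. The cause was not tested. The paralog ratios of *efna1*, *efnb2* and *ephb4* kept their sign in every such set, and a minimum of 30 counts removed the *efnb2* pair. Depth limits *efna5b*, and to a lesser degree *efna3b* and *efnb2b*.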

Other observations

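*ek1*, an Eph-like kinase gene whose symbol falls outside the naming rule, was chosen after its values were seen. It was at 7.16, 4.90 and 9.14 CPM in the TL controls and 8.64, 6.16 and 8.62 CPM in *panx1a*-/- larvae, and the genotypes overlapped (log2 fold change 0.14, 95% interval −0.49 to 0.77, adjusted p = 0.712, quasi-likelihood test of edgeR).

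Of the 32 protein-coding genes that flank the 17 members in the RefSeq order of GRCz12tu and are not members themselves, 14 were tested. Among these, 2 were upregulated and 0 downregulated in edgeR's quasi-likelihood test, against 9.88% and 11.8% of all tested genes. A link between members and their neighbours was not tested. *dpm3*, a subunit of dolichol-phosphate mannose synthase next to the upregulated *efna1a*, was upregulated (log2 fold change 0.85 ± 0.21 SE, adjusted p = 0.0347). *rbm19*, which encodes an RNA-binding protein and lies next to *epha2a*, was upregulated as well (log2 fold change 0.85 ± 0.18 SE, adjusted p = 0.0305), whereas *epha2a* itself was not called. *slc50a1*, a sugar transporter gene on the far side of *efna1b*, was not called, at −0.74 (adjusted p = 0.226).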
